A study of Mus musculus with 34 samples.

Results

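The genes described here are 10 genes of antigen presentation, 6 of the major histocompatibility complex (MHC) class I pathway (H2-K1, H2-D1, B2m, Tap1, Tap2 and Nlrc5) and 4 of the class II pathway (H2-Aa, H2-Ab1, H2-Eb1 and Cd74). They were taken by gene symbol from 3 tables of liver RNA sequencing values. All 10 were among the 46528 genes of the mixed-strain tumor table and the 14074 genes of the Rag1-/- liver table, and 9 were among the 16140 genes of the FVB tumor table, which had no row for H2-Eb1. No member passed the threshold, an adjusted p under 0.05 over all genes tested, in any of 5 comparisons.

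The study asked what loss or gain of Arid1a, which encodes a subunit of the SWI/SNF chromatin remodelling complex, does in mouse liver tumors driven by MYC. In all 34 samples, LAP-tta (a doxycycline-controlled activator under a liver promoter) switched on TRE-MYC after doxycycline water was withdrawn. The mixed-strain tumors (C57/B6 and 129 with FVB) were 8 labelled wild type (WT), with floxed Arid1a alleles (Arid1a flfl) and no Cre, and 8 labelled Het, with Arid1a fl/+ and Alb-cre (Cre under the albumin promoter, active in hepatocytes), all at about 90 days of age. The FVB tumors were 4 WT at about 55 days, 4 Het at about 70 days and 4 Homo (Arid1a fl/fl with Alb-cre) at about 100 days, taken at death, so genotype and age cannot be told apart there. The third set was 6 livers of Rag1-/- FVB mice, which lack mature T and B lymphocytes, with wild-type Arid1a, LAP-tta and TRE-MYC, at about 42 days and 14 days after injection of adenovirus carrying human ARID1A (ad-ARID1A, 3) or Cre (ad-Cre, 3). For these 6, one label says liver and another liver tumor. The protocol text writes the Het genotype as the Homo one, whereas the genotype field gives Arid1a fl/+.

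Class I molecules sit on nearly all nucleated cells and show peptides from inside the cell to CD8 T cells. H2-K1 and H2-D1 encode the classical heavy chains, B2m the shared light chain, Tap1 and Tap2 the paired chains of the pump that carries peptides into the endoplasmic reticulum, and Nlrc5 the coactivator that drives class I promoters. Class II molecules are made mainly by dendritic cells, macrophages and B cells and show peptides from outside the cell to CD4 T cells. H2-Aa, H2-Ab1 and H2-Eb1 encode their chains, Cd74 the invariant chain that guards the groove, and Ciita is the coactivator of their promoters.

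Class I and class II promoters share an arrangement in which an X2 box is followed by a Y box, and the sequences below are shown because genes of both classes carry it in nearly the same spacing. RefSeq promoter windows (GRCm38.p6, from 250 bases before to 50 after the start) were found for 6 members, and the 140 bases before the start are given for 4 of them, with the X2-like core (TGANG) and ATTGG, the Y box read on the gene's strand, in capitals.
H2-K1, chr17:34000348-34000487, minus strand: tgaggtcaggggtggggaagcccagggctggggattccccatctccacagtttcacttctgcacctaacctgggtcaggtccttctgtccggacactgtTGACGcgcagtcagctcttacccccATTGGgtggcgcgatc
B2m, chr2:122147547-122147686, plus strand: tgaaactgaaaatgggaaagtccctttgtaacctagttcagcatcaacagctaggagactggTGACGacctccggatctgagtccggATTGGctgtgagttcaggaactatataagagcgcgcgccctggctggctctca
H2-Aa, chr17:34287824-34287963, minus strand: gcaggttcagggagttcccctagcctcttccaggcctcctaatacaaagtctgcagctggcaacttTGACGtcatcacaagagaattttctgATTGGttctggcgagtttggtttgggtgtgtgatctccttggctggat
H2-Eb1, chr17:34305727-34305866, plus strand: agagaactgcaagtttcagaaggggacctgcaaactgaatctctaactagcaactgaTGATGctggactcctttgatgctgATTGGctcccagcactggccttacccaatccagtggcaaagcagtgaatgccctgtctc
The first bases of the 2 boxes lay 25 bases apart in H2-K1 and B2m, 26 in H2-Aa and 24 in H2-Eb1. H2-D1 also had them 25 apart, and Tap1 did not have the pair. H2-Eb1 and H2-D1 each held 2 such pairs within 20 to 30 bases, and the distance given is that of the pair nearer the start. TGANG followed by ATTGG at 20 to 30 bases stood in 5 of the 6 member windows and in 1.61% of 32851 windows of the same length, a pair of patterns chosen after these sequences were seen. Both strands were searched, and CCAAT, which is ATTGG on the other strand, was in 6 of 6 (37.4% of all windows) and the X box core AGCAAC in 1 of 6, H2-Eb1 (14.8%). Of inducible elements, the interferon-stimulated response element was in 1 of 6, B2m (3.44%), and an NF-kB site in 2 of 6, B2m and H2-Aa (1.2%). A shorter NF-kB pattern, GGGANTNCC, chosen after H2-K1 was read, was in 3 of 6, H2-K1, H2-D1 and H2-Aa (3.95%). The Tap1 window overlaps that of Psmb9, an immunoproteasome gene read the other way, by 275 bases.

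In GENCODE vM21 (GRCm38), 7 members lie on chromosome 17. B2m is at chr2:122147686-122153083, Nlrc5 at chr8:94434356-94527272 and Cd74 on chromosome 18. H2-K1 spans chr17:33996017-34000347 and H2-D1 chr17:35262730-35267499, with the class II chains, Tap1 and Tap2 between them. H2-K1 and H2-D1 are near-copies of other class I genes, so 9.63% of the 50-base words of H2-K1 transcripts and 12.8% of those of H2-D1 also occur in other genes, first in H2-Q10 and H2-Q1, and the split of reads among class I heavy chains is uncertain. For the other 8 members that share was under 1%, although 18.5% of the exonic bases of Tap2 lie opposite other genes' exons, and no source used here says whether counting was by strand, so antisense reads may be included. Reads of 129 or FVB alleles were placed on the C57/B6 reference, and the effect of allele differences on heavy-chain values was not tested.

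Depth, read from the size of the steps between low values, was 2275000 to 5280000 counted reads in the mixed-strain libraries, 6635000 to 12020000 in FVB and 8725000 to 10610000 in Rag1-/- livers. Mouse Arid1a was at a median of 348.7 CPM (reads of a gene relative to all counted reads of its library) in mixed-strain WT and 260.4 in Het tumors, at 287 in FVB WT, 204 in Het and 217 in Homo tumors, and at 115 with ad-Cre and 125 with ad-ARID1A, with overlapping ranges in every set. These whole-gene counts do not show whether the floxed part was deleted, and human ARID1A from the virus was not counted as such. Hepatocyte markers were present in every library, at 2608 to 13710 CPM summed over 12 genes in tumors and 71950 to 88160 CPM in Rag1-/- livers. The labels do not say whether libraries of a group came from separate mice, so p-values measure the spread between these samples only. The tables were normalized separately, and every test was made within one table.

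Per kilobase of exon, B2m had the highest level of the 10 genes in all 7 groups. In mixed-strain WT tumors it was at 217 ± 71.6 CPM per kb (mean ± SD, n = 8). H2-K1 at 53.5 ± 20.4, H2-D1 at 48.5 ± 23.8 and Cd74 at 44.8 ± 33.0 came next and did not differ beyond their spread. The class II chains followed, H2-Ab1 at 9.20 ± 6.47, H2-Aa at 6.16 ± 4.55 and H2-Eb1 at 4.29 ± 3.57 CPM per kb, again within each other's spread. Tap1, Tap2 and Nlrc5 closed the order at 2.42 ± 1.40, 1.65 ± 1.55 and 0.753 ± 0.758 CPM per kb.

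In Rag1-/- livers with ad-Cre the same gene led, and B2m, H2-K1 and H2-D1, but not Tap1, Tap2 and Nlrc5, stood further above the class II genes. B2m was at 1264 ± 18.3 CPM per kb (SD, n = 3), H2-K1 at 206.9 ± 9.32 and H2-D1 at 88.2 ± 2.19, whereas Cd74 was at 39.6 ± 10.9. H2-Ab1 at 7.05 ± 1.79, Tap1 at 6.97 ± 0.297, Nlrc5 at 5.30 ± 0.731 and H2-Aa at 5.22 ± 1.10 CPM per kb were neighbours that overlapped. H2-Eb1 at 3.87 ± 1.38 and Tap2 at 3.45 ± 0.440 were last.

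Among the 8 mixed-strain WT tumors, libraries differed more in class II genes than in the class I heavy and light chains. There the highest value was 12.2 times the lowest for H2-Aa, 8.41 times for H2-Ab1 and 7.79 times for Cd74, against 2.79 times for H2-K1 and 2.36 times for B2m. Of the class I members with low values it was 4.54 times for Tap1, 21.5 times for Nlrc5 and 34.8 times for Tap2. In the 4 FVB WT tumors that order did not hold, with 1.78 times for H2-Aa and 2.01 times for H2-K1. Among the 3 ad-Cre livers the H2-D1 values were 232, 229 and 221 CPM.

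The class II genes, 4 in mixed-strain and 3 in FVB tumors, moved almost as one across libraries. After each gene was centred on its group means, the median Pearson r over pairs of class II genes was 0.96 in the 16 mixed-strain libraries (6 pairs, lowest 0.91) and 0.98 in the 12 FVB libraries (3 pairs). Over the 15 pairs of class I genes it was 0.75 and 0.66, and over pairs of 1 gene from each class 0.68 (24 pairs) and 0.74 (18 pairs). The highest class I pair was H2-K1 and B2m in mixed-strain tumors (r = 0.91) and H2-D1 and B2m in FVB tumors (r = 0.86). These coefficients share libraries and depth and are given as description. Among FVB tumors Homo 2 and Homo 3 lay furthest from their group mean in class II. Those libraries weigh most in the FVB class II coefficients, here and in the gene ranking that follows.

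The genes most like each class in mixed-strain tumors were of different kinds. Closest to the class I mean among 12051 genes were Parp14, Gbp3, Irf7, Rtp4 and Ifih1 (r = 0.94 to 0.91), all known as interferon-induced genes. Closest to the class II mean were C1qb (complement made by macrophages), Aif1, Il10ra, Hk3 and Tyrobp (r = 0.91 to 0.90), known from myeloid cells. In FVB tumors, over 12 libraries and 11636 genes, Fam107b, Diaph2, Ifih1, Lrrk1 and Zbtb20 were nearest to class I (r = 0.97 to 0.94) and Fyb, Gbp7, Zhx2, Ddr2 and Ptprc, the pan-leukocyte gene for CD45, to class II (r = 0.98 to 0.95). Interferon gamma pathway genes did not all go with class I. Gbp2 was nearer to class II (r = 0.80 against 0.72 in mixed-strain and 0.92 against 0.67 in FVB tumors). Irf1 was nearer to class I (r = 0.66 against 0.52 and 0.78 against 0.65).

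**Figure D1:**
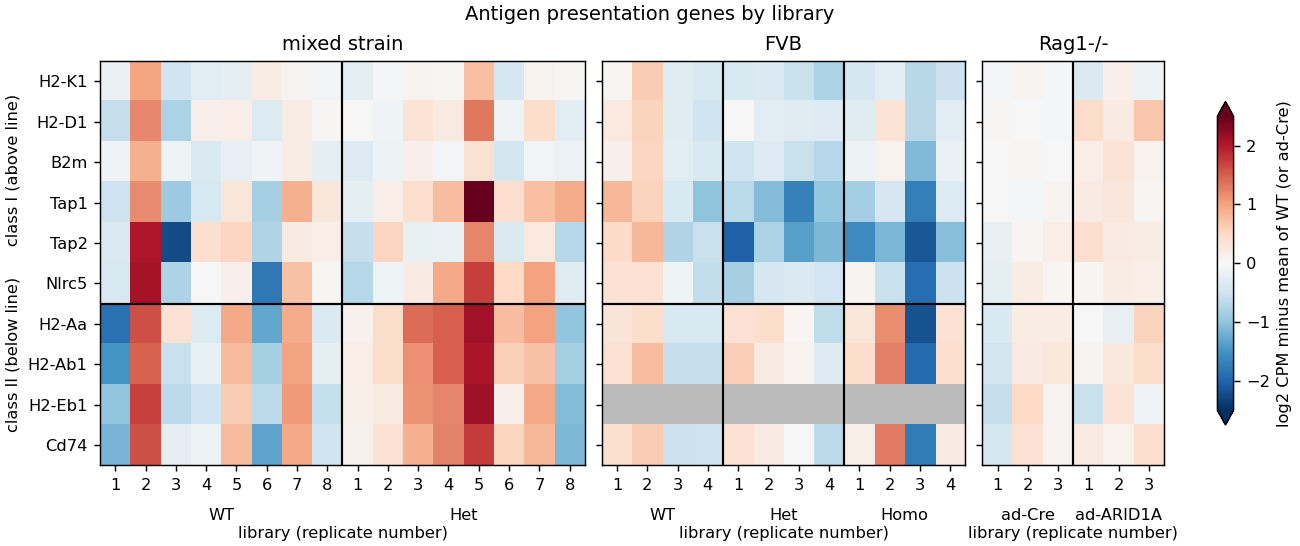
Heat map of the log2 value of each gene (rows, class I above the line and class II below) in each library (columns, by group and replicate number), minus the mean of the WT or ad-Cre libraries of its table. Colours end at 2.5 in either direction, grey marks H2-Eb1, which has no row in the FVB table, and the strongest colours are in WT 2 and Het 5 in mixed-strain tumors and Homo 3 in FVB tumors.

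In mixed-strain tumors all 4 class II genes had higher means in Het than in WT, and none passed the test. H2-Ab1, a class II beta chain, was at 6.41, 16.5 and 53.9 CPM (lowest, median and highest of 8) in WT and at 10.47, 30.5 and 80.01 CPM in Het tumors. H2-Aa, the alpha chain paired with it, was at 4.54, 18.6 and 55.5 CPM in WT and 8.78, 33.6 and 78.3 CPM in Het. The ranges overlapped for both, and WT 2 and Het 5 were the highest libraries of their groups while Het 8 was the lowest Het library. The log2 differences were 0.80 ± 0.48 for H2-Aa (SE, limma adjusted p = 0.425) and 0.72 ± 0.43 for H2-Ab1 (adjusted p = 0.41).

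Cd74 was at 23.6, 52.5 and 184 CPM in WT and 27.1, 96.8 and 203 CPM in Het tumors, a log2 difference of 0.57 ± 0.43. H2-Eb1, another beta chain, was at 3.03, 4.30 and 22.4 CPM in WT and 2.84, 10.4 and 29.9 CPM in Het, a log2 difference of 0.60 ± 0.45. Their groups overlapped too, with limma adjusted p of 0.518 and 0.516. In the same fit 28 of 17552 genes passed, 7 higher and 21 lower, which is 0.16% (percent called), so 0 of 10 members stands beside a very low background.

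The class I genes of the mixed-strain tumors split. Tap1 had the largest log2 difference of the 6, 0.74 ± 0.39 (SE, limma adjusted p = 0.356), with 5.92, 11.4 and 26.9 CPM in WT and 9.70, 17.7 and 81.1 CPM in Het. The 81.1 CPM came from Het 5, and the other 7 Het libraries were at or below 22.3 CPM, inside the WT range. H2-K1 was at 107, 138 and 297 CPM in WT and 112, 153 and 253 CPM in Het, and B2m at 141, 168.5 and 332 CPM and 131, 168 and 235 CPM. Their groups overlapped nearly throughout, with log2 differences of 0.04 ± 0.18 and -0.08 ± 0.16.

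For the remaining class I members the groups overlapped as well. H2-D1 differed by 0.23 ± 0.25 on the log2 scale, Nlrc5 by 0.41 ± 0.45 and Tap2 by 0.00 ± 0.45. Over the class, 4 of 6 were above 0 and the median log2 difference was 0.14, against 0.66 for class II (4 of 4 above 0) and 0.05 over all genes tested, of which 56.1% were above 0. Without WT 2 and Het 5 the medians were 0.18 and 0.69, but the class I median was 0.0058 without Het 5 alone and 0.35 without WT 2 alone. The class II median ran from 0.47 to 0.89 over the alternatives.

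Of the 17 control genes tested 10 were above 0 and 7 below, and none passed. Ciita, the master regulator of class II, was at 0, 1.02 and 3.63 CPM in WT, with 2 libraries listed at 0, and at 0.569, 2.13 and 5.23 CPM in Het, a log2 difference of 1.04 ± 0.45 (limma adjusted p = 0.275). Rfx5, a subunit of the factor that binds the X box, differed by 0.39 ± 0.18 (adjusted p = 0.292), and the other subunits Rfxap and Rfxank by -0.15 ± 0.14 and -0.17 ± 0.18. Of the interferon gamma pathway, Cxcl9, a T cell attractant, differed by 1.46 ± 0.66 and Gbp2, a guanylate-binding protein, by 0.97 ± 0.41. Of 17 control genes 2 and of 18 interferon gamma pathway genes 2 were higher at an unadjusted p under 0.05, where 8.29% of all genes were, and 0 passed after adjustment.

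The rest of the pathway was as follows in mixed-strain tumors. One gene passed among 16 further class I and class I-like heavy chains: Azgp1, a secreted protein with a class I fold, was lower in Het tumors, from 6.73, 129 and 271.5 CPM in WT to 0.444, 2.62 and 32.1 CPM in Het tumors. In all, 4 of the 16 were lower at an unadjusted p under 0.05, where 7.5% of all genes were. The log2 difference of Azgp1 was -4.45 ± 0.76 (limma adjusted p = 0.0256), and the adjusted p was 0.0531 to 0.062 when WT 1, 6 or 8 or Het 1, 3 or 6 was left out. H2-Q6 and H2-Q7, non-classical heavy chains, ran from 5.63 to 34.3 CPM in WT and from 5.77 to 40.9 CPM in Het tumors. Of 9 peptide loading genes 8 were below 0, where 56.1% of all genes were above 0. Sec61a1 and Hspa5 had the smallest p among the 9 (log2 differences -0.11 and -0.14).

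The immunoproteasome and the other lists held no gene that passed. Psmb8, an immunoproteasome subunit, was at medians of 5.70 and 8.25 CPM in WT and Het (log2 difference 0.41 ± 0.34) and Psmb9 at 3.97 and 5.47 CPM. Psme1, an activator subunit, differed by -0.21 ± 0.12. Of the class II accessory genes, Ctsl differed by -0.18 and H2-DMb1 by 0.36, and of costimulation genes Cd48 by 0.46 and Icosl by 0.34. Median levels in WT and Het were 79.5 and 61.7 CPM for Tapbp (tapasin), 4.41 and 4.41 CPM for H2-DMa (a peptide exchange chain) and 34.4 and 27.5 CPM for Irf1.

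Summed pan-leukocyte markers (6 of 6 genes) ran from 186 to 379 CPM in mixed-strain WT and 193 to 473 CPM in Het tumors. The lowest were WT 1 and Het 8, which also had low class II, and Het 5 was the highest Het library in both. Other libraries went against this. WT 4 had the highest WT sum with H2-Aa at 14.0 CPM, below the WT median of 18.6 CPM. Het 1 had a sum of 421 CPM with H2-Aa at 19.25 CPM, below the Het median of 33.6 CPM. Dendritic cell markers (11 of 11) ran from 17.5 to 29.7 CPM and from 12.7 to 46.2 CPM, highest in Het 5, and macrophage markers (15 of 15) from 683 to 1847 CPM, highest in WT 2, and from 520.1 to 1059 CPM. B cell markers (8 of 8) summed to 4.91 to 16.7 CPM and 6.80 to 15.9 CPM, and T and NK cell markers (13 of 13) to 5.65 to 31.3 CPM and 13.6 to 47.8 CPM. Neutrophil markers were below 0 in 10 of 10 tested (median log2 difference -1.74) and hepatocyte markers in 12 of 12 (median -0.56). Macrophage markers were below 0 in 12 of 15 (median -0.30) and endothelial markers in 7 of 9 (median -0.81). Pan-leukocyte markers were above 0 in 6 of 6 (median 0.29) and T and NK cell markers in 8 of 11 (median 0.15). Dendritic cell markers were above 0 in 6 of 10 (median 0.10) and B cell markers in 3 of 4 (median 0.02). Of all genes 56.1% were above 0. At an unadjusted p under 0.05, 7 neutrophil, 6 hepatocyte, 6 macrophage and 5 endothelial markers were lower, where 7.5% of all genes were. Of the macrophage markers 1 passed, Cd163, a scavenger receptor (log2 difference -2.25 ± 0.41, limma adjusted p = 0.032). In these bulk samples fewer cells of a type and less RNA per cell cannot be told apart, and the part of these cells in the class II values was not tested.

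In FVB Het tumors all 6 class I genes had lower means than in WT, as did 1 of the 3 class II genes, Cd74. The median log2 difference was -0.52 over class I (6 of 6 below 0) and 0.05 over the 3 class II genes, against 0.02 over all genes, of which 47.0% were below 0. None passed: 4 of 16140 genes did (0.0248% called). At an unadjusted p under 0.05, 3 of 6 class I genes were lower (H2-K1, Tap1 and Tap2), where 6.07% of all genes were.

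Tap2, a chain of the peptide pump, had the largest difference. It was at 6.77, 8.63, 2.87 and 3.27 CPM in WT 1 to 4 and at 1.19, 2.81, 1.88 and 2.22 CPM in Het 1 to 4. Every Het library was below every WT library, which was true of 2.47% of all genes, but the gap between the nearest pair was small. The log2 difference was -1.33 ± 0.40 (SE, limma adjusted p = 0.168). Tap1, its partner chain, was at 21.1, 17.4, 9.06 and 5.90 CPM in WT and 7.46, 5.62, 3.65 and 6.02 CPM in Het, with 2 Het libraries above WT 4. It differed by -1.10 ± 0.41 (adjusted p = 0.246).

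The heavy and light chains differed less. H2-K1 was at 61.8, 92.4, 48.2 and 45.9 CPM in WT and 45.9, 46.2, 40.8 and 34.3 CPM in Het, a log2 difference of -0.52 ± 0.20 (limma adjusted p = 0.251). B2m was at 239, 315, 179.8 and 169 CPM in WT and 155, 176, 149 and 132.5 CPM in Het, a difference of -0.52 ± 0.24. In both genes WT 1 and WT 2 stood above all Het libraries and WT 3 and WT 4 lay near them. H2-D1 overlapped fully, at 102, 126, 70.0 and 61.4 CPM in WT and 86.8, 70.5, 70.0 and 68.6 CPM in Het, and Nlrc5 was at 10.1, 10.1, 7.36 and 5.17 CPM and 4.47, 5.94, 6.15 and 5.66 CPM.

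The class II genes showed the same high pair in WT, and their Het values overlapped the WT range. H2-Ab1 was at 8.57, 11.2, 4.38 and 4.41 CPM in WT and 9.99, 7.57, 6.96 and 5.24 CPM in Het tumors. Cd74 was at 37.5, 43.7, 19.6 and 19.8 CPM in WT and 36.3, 32.7, 28.1 and 17.6 CPM in Het, and H2-Aa was at 10.9, 11.8, 6.64 and 6.64 CPM and 11.2, 11.7, 8.94 and 5.58 CPM. All 3 overlapped, with log2 differences of 0.15 ± 0.55, -0.03 ± 0.50 and 0.05 ± 0.55 (limma adjusted p from 0.944 to 0.989).

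**Figure D2:**
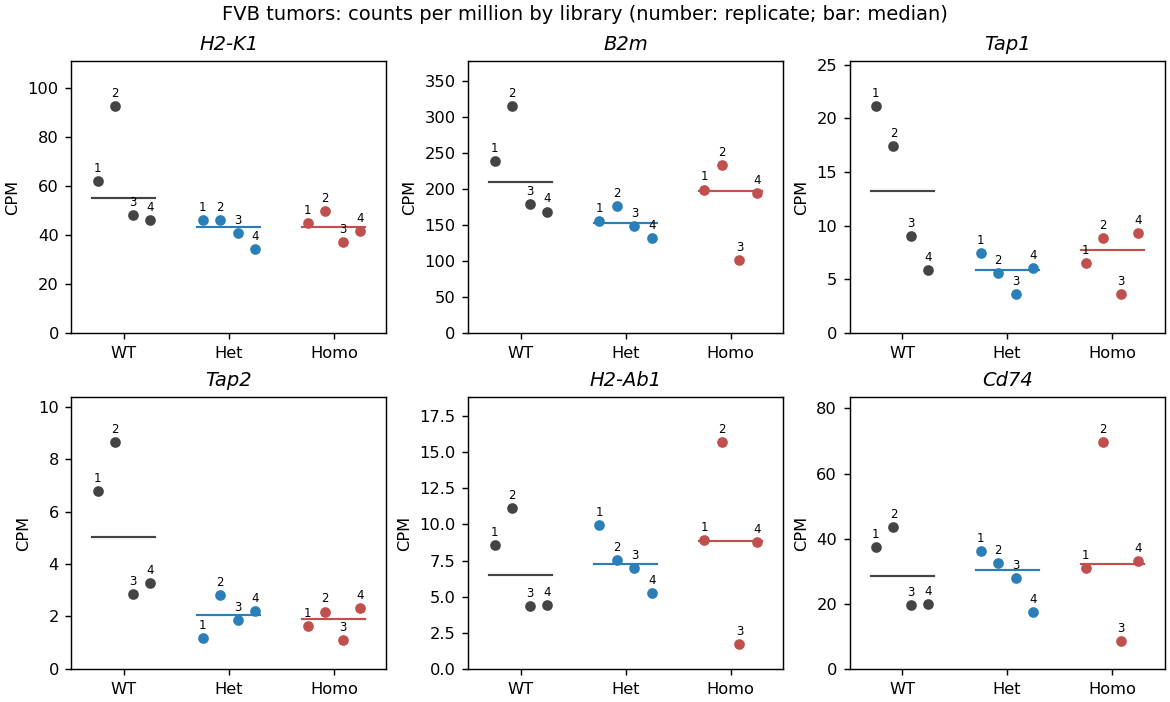
CPM values of 4 class I genes (H2-K1, B2m, Tap1, Tap2) and 2 class II genes (H2-Ab1, Cd74) in each FVB tumor library, grouped as WT, Het and Homo (4 each, numbers are replicates, bars are medians, axes start at 0). WT 1 and WT 2 are the upper WT points in all 6 panels, all Het and Homo points of Tap2 lie under the WT points, and Homo 3 is the lowest point of both class II genes.

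The class I difference in FVB Het was smaller without 2 control libraries. Without WT 1 and WT 2 the class I median log2 difference was -0.19 and the class II median 0.49, and H2-D1 turned to 0.17. When libraries were weighted by their quality in limma (array weights), H2-K1, B2m, Tap1 and Tap2 had adjusted p of 0.0193, 0.0332, 0.0103 and 0.00881, with 2287 genes passing in that setting. WT 1 and WT 2 also had the highest neutrophil marker sums of the WT libraries (130.3 and 61.6 CPM against 7.83 and 2.53 CPM in WT 3 and 4, 10 of 11 markers in the table) and the highest endothelial sums (251.7 and 308 CPM against 145 and 135 CPM, 9 of 9). Their pan-leukocyte sums (228 and 238.5 CPM against 142 and 185.5 CPM), dendritic cell sums and macrophage sums were the highest of the WT libraries too. For B cell, T and NK cell and hepatocyte markers WT 1 and WT 2 were not the highest pair. In Het tumors the neutrophil markers, S100a8 and S100a9 among them, were listed at 0 in Het 2, 3 and 4 and summed to 1.19 CPM in Het 1. Endothelial markers were below 0 in 8 of 9 in Het (median -0.66), with 4 lower at an unadjusted p under 0.05, and macrophage markers in 6 of 15, with 3 lower. Of all genes 47.0% were below 0 and 6.07% were lower at that p. The part of these cells in the class I values was not tested.

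FVB Homo tumors had the same order against the same WT libraries, so the 2 comparisons share their controls. The median log2 difference was -0.60 over class I (6 of 6 below 0) and -0.02 over class II (1 of 3 above 0), with -0.02 over all genes, of which 53.0% were below 0. None of the 9 passed, beside 7 of 16140 genes (0.0434% called). Tap2 was at 1.64, 2.19, 1.10 and 2.31 CPM in Homo 1 to 4, below every WT library (1.98% of all genes were), a log2 difference of -1.48 ± 0.40 (limma adjusted p = 0.227). H2-K1 was at 44.6, 49.9, 37.0 and 41.4 CPM, overlapping WT 3 and 4, with -0.47 ± 0.20 (adjusted p = 0.445). These 2 were the class I genes lower at an unadjusted p under 0.05, where 5.64% of all genes were.

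Homo 3 was the lowest Homo library for the other members. B2m was at 199.5, 234, 102 and 194 CPM in Homo 1 to 4, Tap1 at 6.54, 8.82, 3.63 and 9.32 CPM and Nlrc5 at 8.28, 5.35, 2.11 and 5.43 CPM. Their log2 differences from WT were -0.33 ± 0.24, -0.83 ± 0.41 and -0.73 ± 0.37, and H2-D1, at 70.0, 109.9, 53.5 and 72.0 CPM with Homo 2 apart from the others, differed by -0.22 ± 0.23. Class II spread far wider, with H2-Ab1 at 8.94, 15.7, 1.71 and 8.75 CPM, H2-Aa at 10.7, 19.4, 1.91 and 11.1 CPM and Cd74 at 31.1, 69.6, 8.46 and 33.1 CPM.

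So Homo 2 was the highest and Homo 3 the lowest FVB library for all 3 class II genes. In Homo 3 the Kupffer cell gene Timd4 was listed at 0 (9.06 to 20.4 CPM in the other Homo tumors), the neutrophil sum was 178 CPM (1.80 to 6.30 CPM in the others) and the pan-leukocyte sum 145 CPM (198 to 252 CPM), and their part in its class II values was not tested. Without Homo 3 the class II median log2 difference from WT was 0.61, and without Homo 2 it was -0.46. Without WT 1 and WT 2 the class I median was -0.13 and the class II median 0.50.

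The medians of Homo and Het tumors differed little from each other. The median log2 difference of Homo from Het was 0.03 over class I and -0.10 over class II, with -0.04 over all genes, and the 9 members ranged from -0.21 (Nlrc5) to 0.27 (Tap1). The test passed no gene at all (0% called, with 623 genes, 3.86%, at an unadjusted p under 0.05), so neither class can be said to differ or to be alike between these groups. For Tap2 the difference was -0.15 ± 0.40 and for H2-Aa -0.14 ± 0.55.

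The other pathway genes with the smallest p in Homo against Het all had a limma adjusted p of 1. Hfe, a class I-like iron regulator, differed by -0.50 ± 0.22 on the log2 scale and was lower in every Homo library, as 1.75% of all genes were, and Cd1d1, which presents lipids, by -0.71 ± 0.37. Igtp, an interferon-induced GTPase, differed by 0.69 ± 0.37 and Ifngr2, an interferon gamma receptor chain, by -0.38 ± 0.24. The differences were 0.10 and 0.12 for the chaperones Calr and Hspa5, 0.16 and -0.19 for Psme2 and Psme2b, 0.16 and -0.33 for Ctsl and Ifi30, 0.28 and 0.20 for Ezh2 and Creb1 and 0.56 and 0.18 for Cd274 and Icam1.

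**Figure D3:**
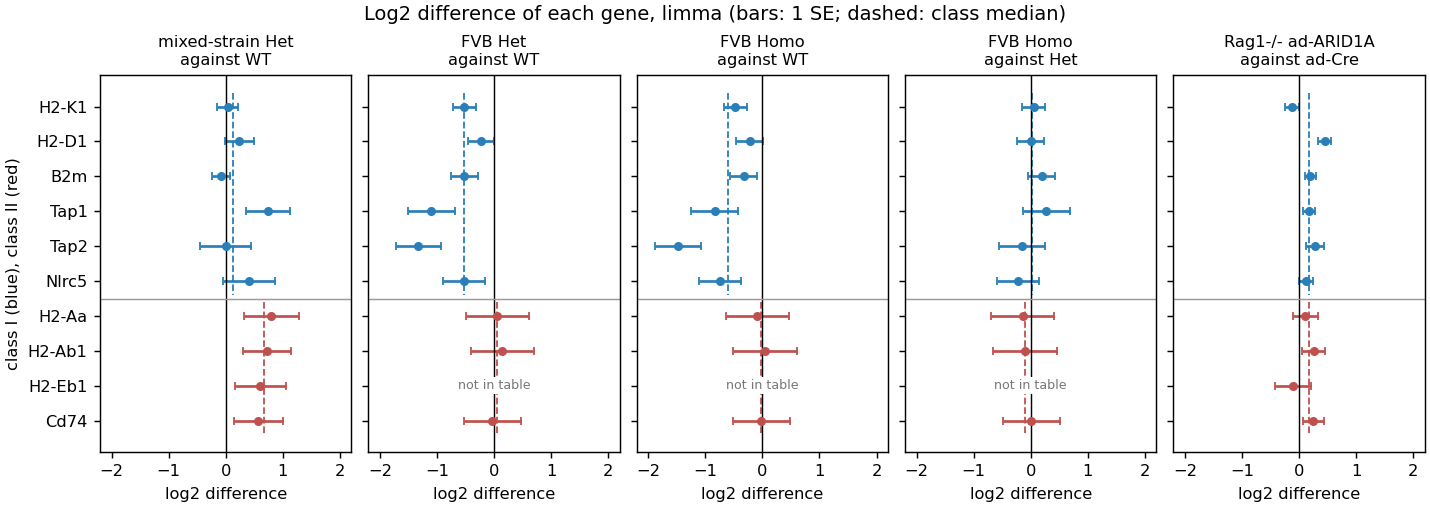
Log2 difference of each gene (points, bars of 1 SE from limma) in the 5 comparisons, class I in blue and class II in red, with dashed lines at the class medians. The class II median lies above the class I median in the 3 comparisons with WT tumors (0.66 and 0.14 in mixed-strain Het, 0.05 and -0.52 in FVB Het, -0.02 and -0.60 in FVB Homo), and no point passed the test.

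Among the other pathway genes of the FVB tumors no gene passed. Psmb9 and Psmb8, which sit beside the Tap genes, were highest in the same WT libraries: Psmb9 was at 7.78, 5.82, 1.80 and 1.78 CPM in WT, 2.38, 1.84, 1.149 and 1.44 CPM in Het and 1.39, 2.40, 1.01 and 0 CPM in Homo, where the last was listed at 0. Its log2 difference was -1.08 ± 0.49 in Het and -1.36 ± 0.49 in Homo (limma adjusted p = 0.332 and 0.359), and Psmb8 differed by -0.77 ± 0.35 in Homo. Psme2, an activator subunit, differed by -0.44 ± 0.20 in Het. Erap1, which trims peptides, differed by -0.56 ± 0.20 and -0.42 ± 0.20, while Sec61a1, a translocon subunit, went the other way with 0.39 ± 0.13 and 0.32 ± 0.13.

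Of the 15 other heavy chains tested, 12 were below 0 in Het (median log2 difference -0.19) and 10 in Homo (median -0.26), and Fcgrt was among those above 0. Of all genes 47.0% were below 0 in Het and 53.0% in Homo. Fcgrt, the class I-like receptor that recycles IgG, was at 22.9, 30.1, 27.5 and 35.0 CPM in WT and higher in every Het (37.8 to 49.5 CPM) and Homo library (35.8 to 39.95 CPM), with log2 differences of 0.61 ± 0.14 and 0.38 ± 0.14 (limma adjusted p = 0.0975 and 0.388). Every library was higher in 4.41% of all genes for Het and 2.09% for Homo. Azgp1 differed by -1.93 ± 0.56 and -1.77 ± 0.56, with WT values of 4.82, 42.8, 34.1 and 10.3 CPM that reached down into the Het range of 2.40 to 6.54 CPM.

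Interferon gamma pathway genes were below 0 in 12 of 17 for FVB Het, where 47.0% of all genes were, and in 11 of 17 for Homo, where 53.0% were. Iigp1, an interferon-induced GTPase, differed by -1.39 ± 0.45 in Het, with every library lower, as 2.47% of all genes were. Jak1, a receptor kinase, differed by -0.41 ± 0.16 in Het and -0.42 ± 0.16 in Homo, and Gbp7 by -0.86 ± 0.37 in Homo. Of the control genes, Creb1 and Ezh2 differed by -0.42 and -0.41 in Het and Nfkb1 and Nfya by -0.37 and -0.36 in Homo. Irf1 had medians of 16.2, 16.5 and 17.0 CPM in WT, Het and Homo, Ciita of 1.67, 1.58 and 1.61 CPM, Tapbp of 29.3, 30.3 and 28.7 CPM and H2-DMa of 1.84, 1.29 and 1.41 CPM.

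Of the costimulation and checkpoint genes, 1 of 5 tested was higher than WT in every Homo library, as 2.09% of all genes were, and none passed. This was Cd274, which encodes the checkpoint ligand PD-L1, at 2.87 to 4.66 CPM in WT, 3.56 to 7.16 CPM in Het and 5.17 to 13.2 CPM in Homo tumors, with log2 differences of 0.40 ± 0.33 and 0.95 ± 0.33 (limma adjusted p = 0.662 and 0.341). Icam1, an adhesion molecule, differed by 0.12 and 0.30. The class II accessory genes with the smallest p were Ctsb and March1 in Het (0.25 and 0.22) and Ctsb and Lgmn in Homo (0.21 and 0.15).

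Over the tumor libraries the 2 classes tended to rise and fall together, though not among FVB Het tumors, and the offset between them separated FVB WT from Het narrowly. An index was made for each library as the mean over a class of the log2 value minus the WT mean. In FVB tumors the class I index was 0.35, 0.58, -0.36 and -0.57 in WT 1 to 4, -0.73, -0.54, -0.80 and -0.74 in Het and -0.53, -0.32, -1.37 and -0.49 in Homo. The class II index minus the class I index was -0.14 to 0.08 in WT, 0.19 to 1.17 in Het and -0.59 to 1.57 in Homo, where Homo 3 alone was below 0. Among Het tumors the class II index ran from -0.55 to 0.44 while the class I index stayed at -0.80 to -0.54. Every Het library lay above every WT library in the difference between the indices, with Het 4 (0.19) close to WT 4 (0.08). This is given as a description because the members were chosen together, and no share over other sets of genes was computed.

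In mixed-strain tumors the offset did not separate the groups. The class II index minus the class I index was -1.03, 0.00 and 0.67 (lowest, median and highest) in WT and -0.92, 0.53 and 1.07 in Het, above 0 in 4 of 8 WT and 7 of 8 Het libraries. Het 8 was the exception. The highest class I index was 1.39 in WT 2 and 1.36 in Het 5, and these 2 libraries also had the highest class II index of their groups, at 1.60 and 2.002.

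**Figure D4:**
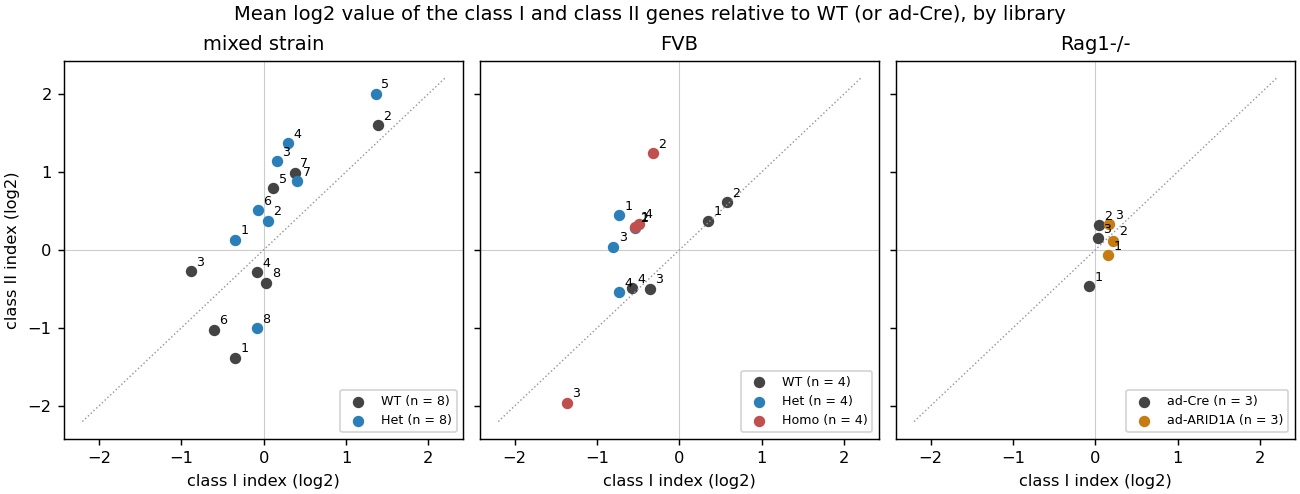
Class I index (horizontal, log2) against class II index (vertical, log2) of each library, each the mean over the class relative to WT or ad-Cre, with replicate numbers beside the points and the dotted line where both are equal. In FVB tumors the 4 WT points lie along the line and the 4 Het points above it, and in Rag1-/- livers the class I index is -0.08 to 0.05 with ad-Cre and 0.15 to 0.22 with ad-ARID1A. In that Rag1-/- comparison 13.9% of all genes were higher in every ad-ARID1A library, and the median log2 difference of all genes was 0.09.

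In Rag1-/- livers no member passed between ad-ARID1A and ad-Cre, and H2-D1 came closest. H2-D1, the classical D heavy chain, was at 232, 229 and 221 CPM with ad-Cre and 311, 261 and 367 CPM with ad-ARID1A. Every ad-ARID1A library was higher, with replicates 1 and 3 standing well above the rest. The log2 difference was 0.45 ± 0.12 (SE, limma adjusted p = 0.164). In this comparison 45 of 14074 genes passed (0.32% called), and 13.9% of all genes were higher in every library. H2-D1 was the 1 class I member of 6 that was higher at an unadjusted p under 0.05, where 9.88% of all genes were.

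The other class I genes did not pass, and H2-K1 was below 0. B2m was at 1075, 1105 and 1082 CPM with ad-Cre and 1226, 1370.0 and 1152 CPM with ad-ARID1A, and Tap2 at 11.2, 13.4 and 14.5 CPM and 17.3, 15.03 and 14.8 CPM. Both were higher in every library, as 13.9% of all genes were, by log2 differences of 0.20 ± 0.09 and 0.27 ± 0.16 (limma adjusted p = 0.434 and 0.519). H2-K1 was at 596, 639 and 588 CPM with ad-Cre and 474, 662 and 556 CPM with ad-ARID1A, a difference of -0.12 ± 0.12 with overlapping groups. Tap1 differed by 0.17 ± 0.10 and Nlrc5 by 0.12 ± 0.12, also overlapping.

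The class II genes of the Rag1-/- livers overlapped between viruses. H2-Ab1 was at 12.8, 20.2 and 21.3 CPM with ad-Cre and 18.6, 21.1 and 23.9 CPM with ad-ARID1A. Cd74 was at 47.5, 83.9 and 68.1 CPM and 76.1, 68.6 and 86.8 CPM, H2-Aa at 15.03, 22.2 and 22.3 CPM and 19.3, 16.9 and 28.8 CPM and H2-Eb1 at 4.82, 10.2 and 7.57 CPM and 4.89, 9.06 and 6.73 CPM. The ad-Cre replicate 1 was the lowest for all 4, and the log2 differences ran from -0.11 (H2-Eb1) to 0.26 (H2-Ab1). The median was 0.18 over class I and 0.18 over class II, beside 0.09 over all genes, of which 66.3% were above 0, so both medians are to be read against that shift.

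Irf1, the interferon-induced factor that acts on class I promoters, was the single pathway gene that passed in Rag1-/- livers. It rose from 11.9, 11.3 and 11.2 CPM with ad-Cre to 20.7, 25.6 and 25.8 CPM with ad-ARID1A, with no overlap. Its log2 difference was 1.06 ± 0.14 (2.08-fold, limma adjusted p = 0.0246), above the median shift of all genes. The adjusted p was 0.0882 to 0.166 when any 1 library was left out, 0.0503 with quantile normalization and 0.123 without the variance trend. It is in 2 of the lists, transcriptional control and the interferon gamma pathway, with 1 of 17 tested genes passing in each.

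In the same livers Ciita, at 2.66, 3.86 and 6.06 CPM with ad-Cre against 4.79, 2.99 and 5.32 CPM with ad-ARID1A, overlapped, as did Psmb8 (10.6 to 12.1 CPM against 11.6 to 17.6 CPM). Psmb9 was at medians of 9.65 and 12.2 CPM, Tapbp of 68.6 and 71.0 CPM and H2-DMa of 2.83 and 2.55 CPM with ad-Cre and ad-ARID1A. All 6 immunoproteasome and activator genes were above 0, where 66.3% of all genes were, and 0 passed. Psme2 (0.34 ± 0.15) and Psme1 (0.20 ± 0.14) had the smallest p among the 6.

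Several class I heavy chains of the Rag1-/- livers differed between the ad-ARID1A libraries themselves. H2-T10, a non-classical heavy chain, was at 7.52, 2.0 and 11.7 CPM in ad-ARID1A 1 to 3 and at 1.64, 1.22 and 0 CPM with ad-Cre, the last listed at 0, a log2 difference of 2.15 ± 0.57 (limma adjusted p = 0.171), and 27.1% of its exonic bases are shared with another gene's exons. H2-Q1 was at 6.32, 6.54 and 16.7 CPM against 5.43, 5.58 and 4.92 CPM. In the other direction H2-Q10, a secreted heavy chain of liver, was at 867, 1287 and 861 CPM against 1399, 1296 and 1314 CPM. H2-Q7 at 17.9, 36.8 and 23.9 CPM against 32.7, 29.4 and 30.3 CPM and H2-T23, the Qa-1 heavy chain, at 65.3, 125 and 79.3 CPM against 97.0, 100.4 and 106 CPM were also low in replicates 1 and 3.

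So ad-ARID1A replicates 1 and 3 had higher H2-D1 and H2-T10 and lower H2-K1, H2-Q10, H2-Q7 and H2-T23 than replicate 2. H2-Q1 did not follow this and was high in replicate 3 alone. H2-Q1, H2-Q7, H2-Q10 and H2-T23 were picked after their values were seen. Of the 16 further heavy chains 12 were above 0 against ad-Cre, where 66.3% of all genes were. Whether these mice carried different MHC alleles was not tested. Fcgrt, outside that pattern, was at 75.1, 72.0 and 70.5 CPM with ad-Cre and 91.1, 91.8 and 86.8 CPM with ad-ARID1A (log2 difference 0.31 ± 0.08, limma adjusted p = 0.165). Tapbpl, a tapasin-like editor, and Lnpep, a trimming peptidase, were higher in every library, as 13.9% of all genes were, by 0.32 ± 0.12 and 0.17 ± 0.09. March8, a ligase that acts on class II, differed by 0.30 ± 0.10, Ctsl by -0.12 ± 0.08, Cd274 by 0.18 and Icam1 by 0.08.

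**Figure D5:**
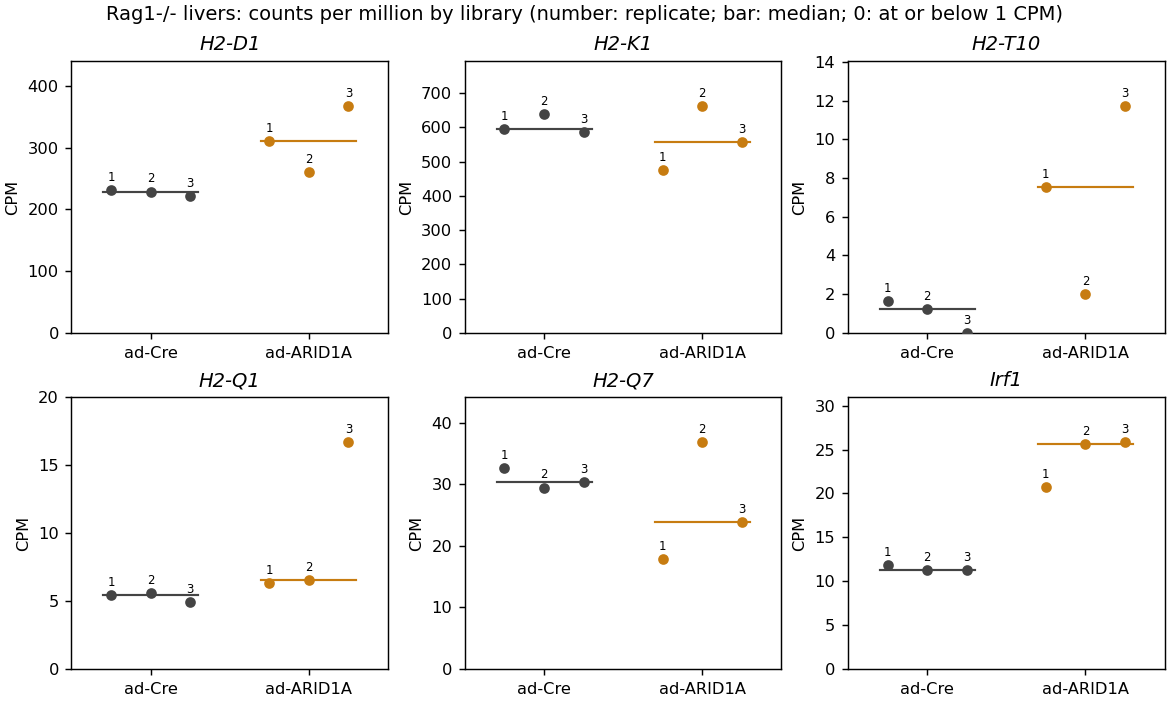
CPM values of 5 class I heavy chains and Irf1 in the 3 ad-Cre and 3 ad-ARID1A livers of Rag1-/- mice (numbers are replicates, bars are medians, axes start at 0). Irf1 and H2-D1 are higher in all 3 ad-ARID1A livers. Replicate 2 is the lowest ad-ARID1A point of H2-T10 and the highest of H2-K1 and H2-Q7.

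In these livers none of 8 B cell markers was in the table and 1 of 13 T and NK cell markers was, Cd4, at 4.72 to 8.46 CPM. Macrophage markers (15 of 15) summed to 378 to 486 CPM with ad-Cre and 364 to 462 CPM with ad-ARID1A, and dendritic cell markers (3 of 11 in the table) to 14.3 to 16.7 CPM and 16.7 to 20.1 CPM. Pan-leukocyte markers (5 of 6) summed to 134 to 144 CPM and 122 to 162 CPM. Class II genes were thus measured at these levels in livers whose B cell genes were not listed, and the part of macrophages and dendritic cells in the values was not tested.

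Class II lay above class I in 3 of the 5 comparisons. The class II median minus the class I median log2 difference was 0.53 in mixed-strain Het, 0.57 in FVB Het and 0.59 in FVB Homo tumors against WT. It was -0.13 for FVB Homo against Het and 0.00 in the Rag1-/- livers. The 3 positive values rest on different members: in mixed-strain tumors class II was above 0 and class I near it, whereas in FVB tumors class I was below 0 and class II near it, and no member passed in any of them. The FVB pattern depends on WT 1 and WT 2, which both FVB comparisons share. Without these libraries the class I median was -0.19 in Het and -0.13 in Homo, and the class II median was 0.49 in Het.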

How the data were processed

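RNA sequencing values of 34 libraries were used. Per the labels, RNA came from frozen tissue (Trizol, miRNeasy) and libraries from a Nugen protocol. Per the submitters' processing notes, Trim Galore, HISAT2, SAMtools, featureCounts and GRCm38 (mm10) were used, with no versions named. The authors deposited log2 values in all 3 tables: FVB and Rag1-/- as log2 CPM with genes at or below 1 CPM listed at 0, and mixed-strain as values named RPKM whose back-transformed totals of 999553 to 999898 per library are those of log2(CPM + 1). These were tested as log2(CPM + 0.5) for the 17552 genes with a mean CPM of at least 0.5, so low genes' changes are understated.

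Each table was fitted in limma 3.58.1 (R 4.3.3; lmFit, eBayes with trend, two-sided, Benjamini-Hochberg over all genes tested, threshold 0.05), the 3 FVB groups in 1 fit. The test was tried on simulated data. CPM values are back-transformed. Positions, exon lengths and transcript words come from GENCODE vM21, promoter windows from RefSeq (GRCm38.p6; 6 of 10 members matched), and summaries from Python 3.11.15. The interferon-stimulated response element, the NF-kB site and the X and Y box cores were searched as fixed patterns on both strands. Likeness was ranked among genes with a mean of at least 2 log2 CPM.

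Members, lists, motifs and tests were chosen with earlier results of these data known. By rule all 10 members were named, with each list's genes past the threshold or else the 2 with the smallest p; Ciita, Psmb8, Psmb9, Tapbp, H2-DMa and Irf1 are given by level unless that rule named them; another gene of that rule is not reported here. Fcgrt, Azgp1 and H2-T10 came from the rule, and H2-Q1, H2-Q6, H2-Q7, H2-Q10, H2-T23, Rfxap, Rfxank, Timd4, S100a8, S100a9 and Cd163 were picked after their values were seen. Replicate numbers were not treated as pairs in the main fits. Alternatives were other normalizations, filters, pseudocounts, variance models, weights, a replicate block and leaving out libraries.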

Additional observations from a re-analysis of the deposited data

Results flagged for a closer look

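In mixed-strain tumors 1 library per group stood far above the others of its group, by the gap to its nearest neighbour as a share of the range (57 sets of values were looked at, and chance alone gives about 1 in 20). In WT tumors this was WT 2, with H2-K1 at 297 CPM (107 to 170.3 CPM in the other 7) and B2m at 332 CPM (141 to 205.5 CPM). In Het tumors it was Het 5, with H2-K1 at 253 CPM (112 to 159.9 CPM), H2-D1 at 289 CPM (96.0 to 155.5 CPM), Tap1 at 81.1 CPM (9.70 to 22.3 CPM) and the class I index at 1.36 (-0.34 to 0.41). In FVB Het tumors H2-D1 was at 86.8 CPM in Het 1 and at 68.6 to 70.5 CPM in the other 3. No class II gene was marked in this way.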

How the results depend on the processing

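Values below are log2 differences unless named as counts of genes passing. In 911 recomputed values of the members, 834 kept direction and side of the threshold, 73 turned direction and 4 newly passed (H2-K1, B2m, Tap1 and Tap2 in FVB Het with array weights). The class II minus class I median ranged over 0.40 to 0.69 in mixed-strain Het, 0.50 to 0.77 in FVB Het and 0.21 to 0.98 in FVB Homo against WT, and changed sign in FVB Homo against Het (-0.40 to 0.40) and in the Rag1-/- livers (-0.22 to 0.14). Depth limits the low genes, and 3 or 4 libraries a group limit every test outside the mixed-strain table. The cause of the changes below was not tested.

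The count of genes passing in mixed-strain Het was 101 with array weights, 14 with no filter and 16 without WT 2 and Het 5. In FVB Het it was 2 with quantile normalization, 7 with equal medians, 16 with robust shrinkage, 2287 with array weights, 0 at a mean of at least 2 log2 CPM (1689 at an unadjusted p under 0.05), 1 on log2(CPM + 1), 1 without WT 1 and 2, 21 with totals without Gm26917 and 1 with only the groups compared. In FVB Homo against WT it was 21 with array weights, 0 at a mean of at least 2 (1117 unadjusted), 3 without WT 1 and 2 and 0 with only the groups compared (1336 unadjusted). In the Rag1-/- livers it was 22 with quantile normalization, 1 without the variance trend and 96 with robust shrinkage.

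With a replicate block the count was 75 in mixed-strain Het, 0 in FVB Het (2491 unadjusted), 1 in FVB Homo against WT and 59 in the Rag1-/- livers. The numbers were not treated as pairs in the main fits. Deviations of same-numbered libraries correlated above 0.1 in 1 of 8, 2 of 4, 2 of 4, 1 of 4 and 0 of 3 pairs (the last 2 for Homo against Het and Rag1-/-), and 1, 2, 3, 1 and 1 libraries correlated best with their own number. With 3 or 4 pairs outside the mixed-strain tumors, this cannot settle whether the numbers pair samples there.

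In mixed-strain Het, B2m was 0.011 with array weights, and Tap2 was 0.054 with quantile normalization, 0.094 with array weights and 0.11 without WT 2 and Het 5. In FVB Het, H2-Aa was -0.051 and H2-Ab1 -0.14 with array weights, and without WT 1 and 2 H2-D1 was 0.17, Cd74 0.49 and Icam1 -0.17. In FVB Homo against WT, H2-Aa was 0.016 and Cd74 0.044 with quantile normalization, Cd74 was 0.02 with equal medians, H2-Aa was 0.0038 with array weights, and without WT 1 and 2 H2-D1 was 0.17, H2-Aa 0.30 and Cd74 0.50. In FVB Homo against Het, H2-D1 was -0.0093 with totals without Gm26917, and H2-Aa 0.055 and H2-Ab1 0.16 with array weights. In the Rag1-/- livers Icam1 was -0.017 with quantile normalization and -0.0067 with equal medians.

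Leaving out 1 library at a time gave counts of 8 to 138 in mixed-strain Het, 0 to 256 in FVB Het, 0 to 36 in FVB Homo against WT, 0 to 3 in FVB Homo against Het and 0 to 19 in the Rag1-/- livers. In mixed-strain Het it gave -0.068 to 0.18 for H2-K1, -0.15 to 0.042 for B2m and -0.32 to 0.29 for Tap2. In FVB Het it gave -0.076 to 0.28 for H2-Aa, -0.049 to 0.40 for H2-Ab1, -0.21 to 0.19 for Cd74 and -0.029 to 0.24 for Icam1. In FVB Homo against WT it gave -0.51 to 0.61 for H2-Aa, -0.36 to 0.71 for H2-Ab1 and -0.46 to 0.56 for Cd74. In FVB Homo against Het it gave -0.042 to 0.12 for H2-K1, -0.19 to 0.16 for H2-D1, -0.39 to 0.067 for Tap2, -0.48 to 0.17 for Nlrc5, -0.56 to 0.56 for H2-Aa, -0.50 to 0.56 for H2-Ab1, -0.43 to 0.59 for Cd74 and -0.52 to 0.0042 for Ifi30. In the Rag1-/- livers it gave -0.11 to 0.27 for H2-Aa, -0.40 to 0.14 for H2-Eb1 and -0.12 to 0.32 for Icam1. Fcgrt passed in FVB Het without WT 4 (limma adjusted p = 0.0371).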
